A study of Mus musculus with 12 samples.

Results

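The suppressors of cytokine signalling (SOCS) and the related CIS protein are feedback inhibitors of cytokine receptors, and their mouse genes, Cish and Socs1 to Socs7, were followed here in granulocyte-monocyte progenitors (GMP) that differed in the transcription factor Runx1. All probes whose gene name in the array files was one of these 8 symbols were taken, which gave 14 of 39429 probes. Of these, 12 probes were bright enough to be tested, and all 8 genes were represented among the 18014 genes tested. The GMP were sorted from mouse bone marrow and their RNA was hybridised to 12 one-colour arrays in 4 groups. In the RUNX1-ERt2 and ERt2 groups (n = 2 each), marrow of Runx1fl/fl-Tg(vav-Cre) mice was collected 3 days after 5-fluorouracil (150 mg/kg) and infected with a MIG retrovirus that expresses GFP together with RUNX1-ERt2, a fusion of RUNX1 with a tamoxifen-binding domain, or with the ERt2 domain alone. Lethally irradiated recipients carried these cells for 6 weeks, then received tamoxifen (49.5 µg/g, intraperitoneal) on 3 days, and viable GFP+ GMP were sorted 24 h later. The labels of all 4 of these arrays name tamoxifen, whereas the treatment protocol speaks of only some of the recipients. The ko group (n = 4) was native GMP of Runx1fl/fl-Tg(vav-Cre) mice, and the wt group (n = 4) native GMP of Runx1+/+-Tg(vav-Cre) mice. All 4 groups therefore carried the vav-Cre transgene, which is active across blood cells, and both transplanted groups as well as the ko group came from floxed Runx1 alleles. The labels give neither the ages of the mice nor whether each array was a separate animal, so the p-values below speak only to the spread among these arrays, part of which may be technical.

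SOCS proteins bind phosphorylated tyrosines through an SH2 domain, and their SOCS box recruits elongins and a cullin to form a ubiquitin ligase. Cytokine receptors activate JAK kinases, which phosphorylate STAT transcription factors, and STATs in turn induce Cish, Socs1, Socs2 and Socs3, so that these genes are often read as targets of the pathway as well as its brakes. In granulopoiesis SOCS3 restrains signalling from the receptor of G-CSF, and SOCS1 restrains interferon signalling. SOCS4 to SOCS7 are better known as regulators of receptor tyrosine kinase and insulin signalling and are less tied to STAT induction.

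Levels are given as log2 processed signal minus the 75th percentile of the same array, so that 0 is the 75th percentile itself and 1 unit is a 2-fold difference. The 75th percentile was a signal of 841 to 1010 on the transplanted arrays and 941 to 1740 on the native arrays, and 53.5% to 56.3% and 56.7% to 63.2% of probes were well above background on them. No level is compared between genes, because each probe has its own brightness. The Runx1 probe A_51_P206585 lay at 1.56 to 1.76 in RUNX1-ERt2, 2.6 to 2.61 in ERt2, 2.44 to 3.05 in ko and 0.86 to 1.22 in wt arrays. The probe A_55_P2183438 lay at 1.92 to 2.33, 3.14 to 3.29, 2.87 to 4.2 and 1.18 to 2.23 in the same order. Both Runx1 probes were thus brighter in ko than in wt arrays, and the sources used here do not place them relative to the floxed segment, so they do not check the genotype labels and all directions below rest on those labels. All 10 GMP markers examined, among them Mpo and Elane, were well above background on every array.

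The RefSeq promoter table (GRCm38.p6) held 4 of the 8 genes, and none for Socs2, Socs5, Socs6 and Socs7. The 250 bases before the annotated start are shown for the 3 of those 4 genes that differed between ko and wt GMP, on the strand of the gene, with the STAT motif TTCNNNGAA in capitals where it occurs. Cish lies at chr9:107296409-107296658 on the plus strand, Socs1 at chr16:10785537-10785786 on the minus strand and Socs3 at chr11:117969367-117969616 on the minus strand, all in GRCm38.p6.
Cish: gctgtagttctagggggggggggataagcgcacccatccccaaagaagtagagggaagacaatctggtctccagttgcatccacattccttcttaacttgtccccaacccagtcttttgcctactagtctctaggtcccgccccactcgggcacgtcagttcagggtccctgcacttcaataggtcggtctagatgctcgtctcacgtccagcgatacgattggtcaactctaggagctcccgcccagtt
Socs1: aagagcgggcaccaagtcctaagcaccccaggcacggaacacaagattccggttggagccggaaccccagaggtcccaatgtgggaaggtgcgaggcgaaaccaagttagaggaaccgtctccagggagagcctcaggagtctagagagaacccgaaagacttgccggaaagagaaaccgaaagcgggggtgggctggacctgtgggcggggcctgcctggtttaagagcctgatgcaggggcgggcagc
Socs3: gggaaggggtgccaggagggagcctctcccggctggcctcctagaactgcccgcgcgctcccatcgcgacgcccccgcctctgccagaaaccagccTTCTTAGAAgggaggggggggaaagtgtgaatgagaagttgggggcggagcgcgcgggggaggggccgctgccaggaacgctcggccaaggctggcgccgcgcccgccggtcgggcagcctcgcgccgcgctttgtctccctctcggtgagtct
TTCNNNGAA reads the same on both strands. It occurred once in the Socs3 window, as TTCTTAGAA from 154 to 146 bases before the start, and not in the windows of Cish, Socs1 or Socs4. Of 32851 mouse promoter windows of this length, 7.02% held the motif. The RUNX motif TGTGGT, searched on both strands (ACCACA on the other), was in 14.0% of all windows and in none of the 4. A match is only a run of letters, and its absence speaks only of these windows.

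Cish, which encodes CIS, an inhibitor of STAT5-activating receptors, was higher in ko than in wt GMP and higher with RUNX1-ERt2 than with ERt2. Its probe, A_51_P470715 (chr9:107204196-107204255, plus strand, mm9), gave log2 levels of -0.02 and -0.55 on the RUNX1-ERt2 arrays and -1.84 and -2.05 on the ERt2 arrays. The ko arrays gave 0.48, 0.72, 1.16 and 0.57, and the wt arrays -1.25, -1.05, -1.52 and -1.11. No array of one group overlapped another group, and the order was ko, RUNX1-ERt2, wt and ERt2 from high to low. The mean level was 0.73 ± 0.3 in ko and -1.24 ± 0.21 in wt GMP (SD, n = 4 each), a difference of 1.97 ± 0.19 log2 (SE), or 3.91-fold (limma adjusted p = 0.000194). It was 1.75 on slide 1 and 2.18 on slide 2. The mean was -0.28 ± 0.38 with RUNX1-ERt2 and -1.94 ± 0.15 with ERt2 (SD, n = 2 each), a difference of 1.66 ± 0.26 log2, or 3.16-fold (limma adjusted p = 0.00246). Each step in the order also passed the test: RUNX1-ERt2 against ko at -1.02 ± 0.23 (limma adjusted p = 0.00538), RUNX1-ERt2 against wt at 0.95 ± 0.23 (0.00819) and ERt2 against wt at -0.71 ± 0.23 (0.025). RUNX1-ERt2 against ko and ERt2 against wt were added after the levels were seen, here and for the genes below. They were not run in the other settings. Without RUNX1-ERt2 replicate 1 the RUNX1-ERt2 against wt difference of Cish was 0.68. Of all genes, 25.2% were higher and 24.9% lower in RUNX1-ERt2 than in ko GMP, and 28.4% higher and 27.8% lower in ERt2 than in wt GMP. Cish thus lay above its comparison group both in cells that lack Runx1 (ko against wt) and in cells given RUNX1 back (RUNX1-ERt2 against ERt2). In bulk samples such as these, fewer cells of a type and less RNA per cell cannot be told apart.

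**Figure D1:**
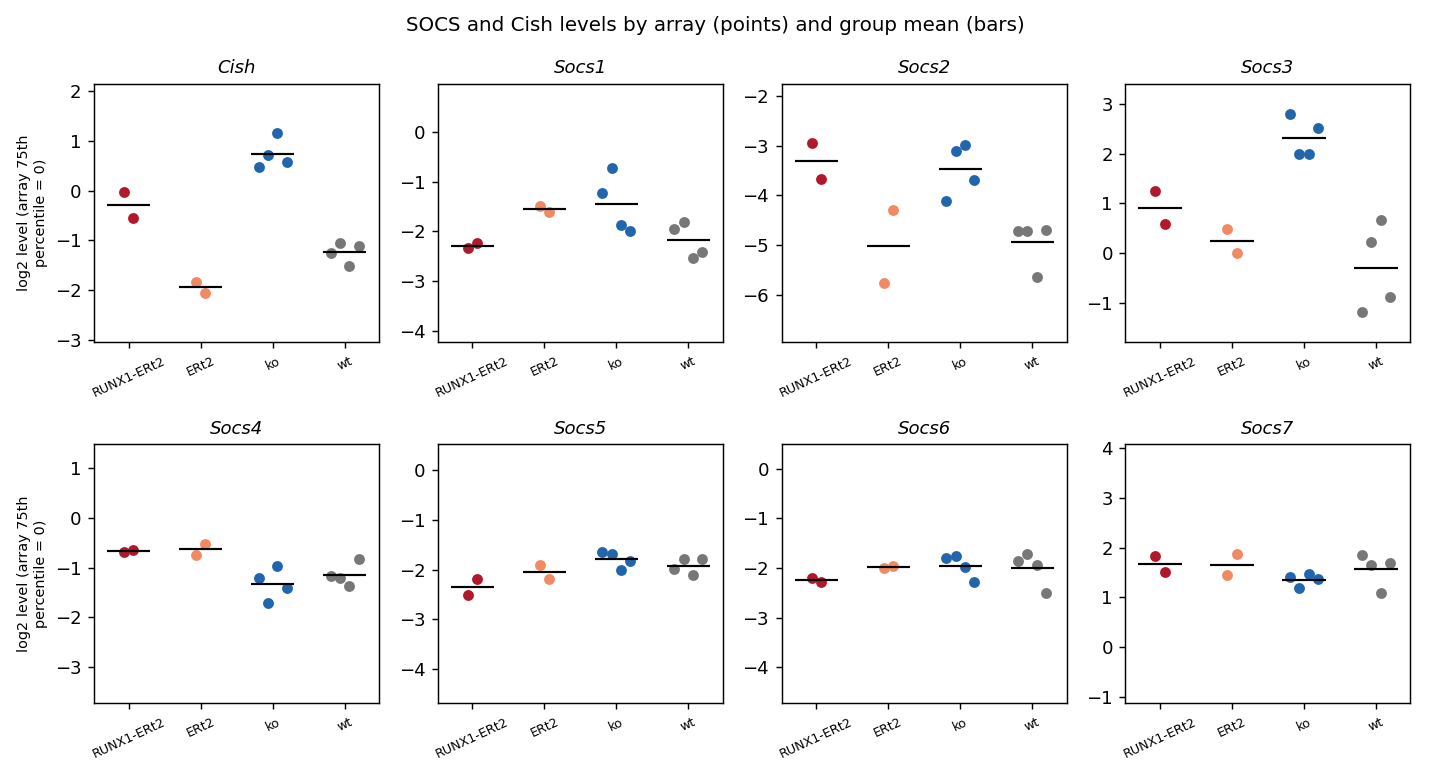
Log2 level of each of the 8 genes on every array (points) with the group mean (black line), in RUNX1-ERt2, ERt2, ko and wt GMP from left to right. The vertical axis is log2 processed signal with the 75th percentile of each array at 0, and its span is the same in every panel although its position differs. The 4 ko arrays of Cish (0.48 to 1.16) and of Socs3 (1.99 to 2.8) lie above all other arrays of these genes, whereas the ko and wt arrays overlap for Socs4, Socs5, Socs6 and Socs7.

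Socs3, which encodes the main brake on G-CSF and IL-6 family receptors, showed the largest difference of the family between ko and wt GMP. Its probe, A_51_P474459 (chr11:117827480-117827539, minus strand, mm9), gave log2 levels of 1.24 and 0.58 with RUNX1-ERt2, 0.49 and 0.01 with ERt2, 2.8, 1.99, 1.99 and 2.52 in ko GMP, and -1.18, 0.23, 0.67 and -0.89 in wt GMP. Every ko array was above every other array, and the wt arrays were widely spread. The means were 2.33 ± 0.4 in ko and -0.29 ± 0.88 in wt GMP (SD, n = 4 each). The difference was 2.62 ± 0.42 log2, or 6.15-fold (limma adjusted p = 0.00277), and 2.87 within slide 1 and 2.37 within slide 2. With RUNX1-ERt2 the mean was 0.91 ± 0.47 and with ERt2 0.25 ± 0.34 (SD, n = 2 each). That difference, 0.66 ± 0.59 log2 with a 95% interval of -0.68 to 2, did not pass the test (limma adjusted p = 0.507), although both RUNX1-ERt2 arrays were above both ERt2 arrays, which held for 29.1% of all genes. From high to low the order was ko, RUNX1-ERt2, ERt2 and wt. Only the first step in it passed the test (RUNX1-ERt2 against ko, -1.41 ± 0.51, limma adjusted p = 0.045), and the steps from RUNX1-ERt2 to ERt2 and from ERt2 to wt (0.55 ± 0.51, 0.389) did not.

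Socs1, which encodes a direct JAK inhibitor best known from interferon signalling, was higher in ko than in wt GMP, and with RUNX1-ERt2 it was below its ERt2 level. Its probe, A_51_P279606 (chr16:10783951-10784010, minus strand, mm9), gave log2 levels of -2.33 and -2.24 with RUNX1-ERt2, -1.48 and -1.6 with ERt2, -1.23, -0.72, -1.87 and -1.99 in ko GMP, and -1.96, -1.8, -2.53 and -2.42 in wt GMP. The ko and wt arrays overlapped over both slides together, but on each slide both ko arrays were above both wt arrays. The means were -1.45 ± 0.59 in ko and -2.18 ± 0.35 in wt GMP (SD, n = 4 each), and the difference with the slide in the fit was 0.73 ± 0.13 log2, or 1.66-fold (limma adjusted p = 0.00442), and 0.91 within slide 1 and 0.55 within slide 2. With RUNX1-ERt2 the mean was -2.29 ± 0.06 and with ERt2 -1.54 ± 0.08 (SD, n = 2 each), a difference of -0.75 ± 0.18 log2, or 1.68-fold lower with RUNX1-ERt2 (limma adjusted p = 0.0197). The levels fell into a high pair, ko and ERt2, and a low pair, wt and RUNX1-ERt2. Within the pairs the differences did not pass the test, at -0.09 ± 0.16 for ERt2 against ko (95% interval -0.44 to 0.27) and -0.11 ± 0.16 for RUNX1-ERt2 against wt (-0.47 to 0.24). Between the pairs, ERt2 was 0.64 ± 0.16 above wt (limma adjusted p = 0.00732) and RUNX1-ERt2 was lower than ko by 0.84 on the log2 scale (difference -0.84 ± 0.16, 0.00219). Both calls depended on the slide term, since without it the adjusted p was 0.0948 for ko against wt and 0.266 for RUNX1-ERt2 against ERt2, and the second call was lost without any 1 of the 4 transplanted arrays (adjusted p 0.0586 to 0.0966). With normexp background correction the adjusted p was 0.0758 for the first and 0.153 for the second.

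Socs2, which encodes a regulator of growth hormone and other cytokine receptors, was dim and was higher in ko than in wt GMP. The probe that stands for the gene, A_51_P107362 (chr10:94875066-94875125, minus strand, mm9), is printed as 10 spots per array. It gave log2 levels of -2.94 and -3.67 with RUNX1-ERt2, -5.76 and -4.29 with ERt2, -4.11, -3.1, -2.98 and -3.69 in ko GMP, and -4.71, -4.71, -5.64 and -4.7 in wt GMP. It was well above background on 1 of the 2 ERt2 arrays and on all other arrays. Every ko array was above every wt array, which held for 10% of all genes. Both RUNX1-ERt2 arrays were above both ERt2 arrays, which held for 29.1%. The means were -3.47 ± 0.53 in ko and -4.94 ± 0.47 in wt GMP (SD, n = 4 each), a difference of 1.47 ± 0.4 log2, or 2.76-fold (limma adjusted p = 0.0265), and 1.1 within slide 1 and 1.83 within slide 2. With RUNX1-ERt2 the mean was -3.3 ± 0.52 and with ERt2 -5.02 ± 1.04 (SD, n = 2 each), a difference of 1.72 ± 0.56 that did not pass the test (limma adjusted p = 0.0638). Without ERt2 replicate 2 it was 2.45 (0.0286). RUNX1-ERt2 and ko had the higher means and ERt2 and wt the lower ones. RUNX1-ERt2 and ko differed by 0.17 ± 0.49 (limma adjusted p = 0.796) and ERt2 and wt by -0.08 ± 0.49 (0.894), so that neither of these pairs separated beyond its spread. The places of ERt2 and wt are not settled, since 1 ERt2 array was not well above background and the other 2 tested probes gave 0.6 ± 0.41 and 0.52 ± 0.44 for ERt2 against wt (limma adjusted p = 0.238 and 0.339).

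Further Socs2 probes bear on these differences. A_55_P1992834 (chr10:94875187-94875246, minus strand, mm9) was 1.56 ± 0.33 log2 higher in ko than in wt GMP (limma adjusted p = 0.0102, over all probes tested) and 1.69 ± 0.47 higher with RUNX1-ERt2 than with ERt2 (0.0361). A_55_P1992838 (chr10:94875468-94875527, minus strand, mm9) was 1.48 ± 0.36 higher in ko than in wt GMP (limma adjusted p = 0.0173) and differed by 1.43 ± 0.5 between RUNX1-ERt2 and ERt2 (0.0856). The 3 probes lie within the same stretch of chromosome 10 and gave differences of like size, but only 1 of them passed the test in the transplanted pair. A_55_P2072586 (chr10:94848005-94848064, minus strand, mm9) was not above background on any array and was not tested. For the probe that stands for the gene, the ko against wt call was lost when replicate numbers entered as a block (adjusted p = 0.0651), without the filter on dim probes (0.0507), and without wt replicate 1, wt replicate 2, wt replicate 3, ko replicate 2, ko replicate 3 or ko replicate 4 (0.0549 to 0.0755). With normexp background correction, which adds an offset that flattens dim spots, the difference was 0.26 log2 (adjusted p = 0.67).

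**Figure D2:**
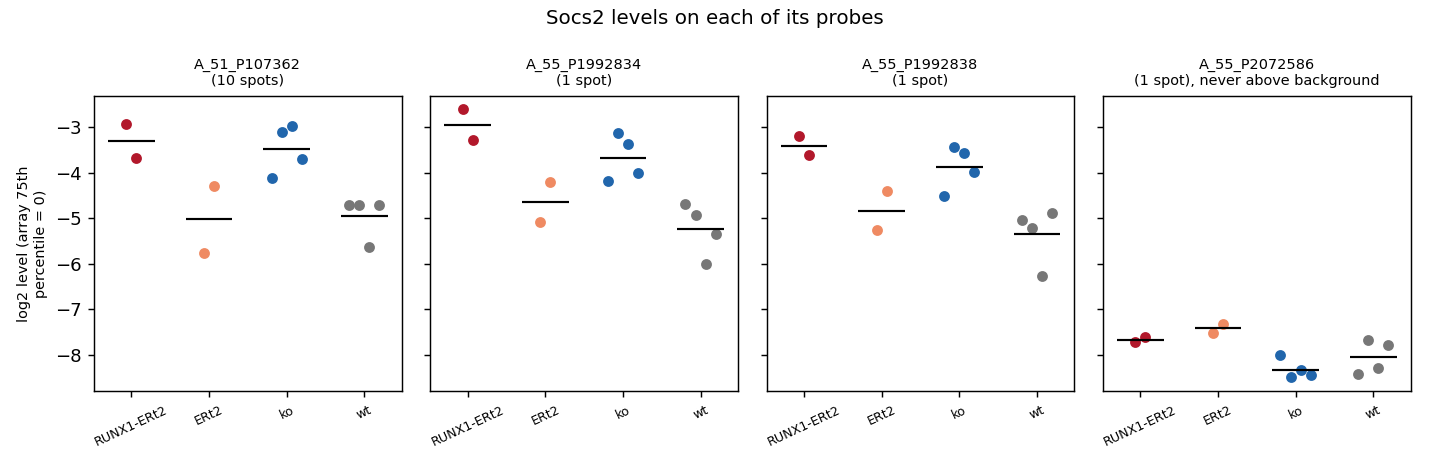
Log2 level of the 4 Socs2 probes on every array (points) with group means (black lines), in RUNX1-ERt2, ERt2, ko and wt GMP from left to right, on 1 shared vertical axis (log2 processed signal, 75th percentile of the array at 0). On the first 3 probes the 4 ko arrays lie above the 4 wt arrays and the RUNX1-ERt2 arrays above the ERt2 arrays, while A_55_P2072586 stays at -7.31 or below, not above background.

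Of Socs4, Socs5, Socs6 and Socs7, none passed the test in ko against wt GMP or in RUNX1-ERt2 against ERt2 GMP. Socs4, whose product binds the EGF receptor, was measured by A_55_P1973886 (chr14:47911161-47911220, plus strand, mm9), with log2 levels of -0.69 and -0.65 with RUNX1-ERt2, -0.74 and -0.52 with ERt2, -1.72 to -0.97 in ko and -1.37 to -0.82 in wt GMP. All 4 transplanted arrays lay above all 8 native arrays, a split whose share over all genes was not computed. In single pairs, all ERt2 arrays lay above all ko arrays for 33.9% of all genes. All RUNX1-ERt2 arrays lay above all wt arrays for 27.3%. For Socs4 the ko against wt difference was -0.19 ± 0.16 (95% interval -0.56 to 0.18) and the RUNX1-ERt2 against ERt2 difference -0.04 ± 0.23 (-0.56 to 0.48). Socs5, a relative of Socs4, was measured by A_52_P281033 (chr17:87536500-87536559, plus strand, mm9), with -2.51 and -2.18 with RUNX1-ERt2, -1.91 and -2.19 with ERt2, -2 to -1.65 in ko and -2.11 to -1.79 in wt GMP. Its differences were 0.13 ± 0.12 in ko against wt (95% interval -0.14 to 0.4) and -0.3 ± 0.17 in RUNX1-ERt2 against ERt2 (-0.68 to 0.09). The RUNX1-ERt2 arrays of Socs5 lay below all native arrays. They lay below all wt arrays for 28.7% of all genes, and the share against ko and wt together was not computed. In RUNX1-ERt2 against ko GMP, Socs4 was higher (0.66 ± 0.2, limma adjusted p = 0.0227) and Socs5 lower (-0.56 ± 0.15, 0.0119).

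Socs6, whose product binds the stem cell factor receptor KIT, had 4 probes, of which 3 were tested. Its brightest probe, A_55_P1969251, gave -2.2 and -2.27 with RUNX1-ERt2, -2 and -1.95 with ERt2, -2.28 to -1.75 in ko and -2.51 to -1.71 in wt GMP. The differences were 0.05 ± 0.13 in ko against wt (95% interval -0.23 to 0.34) and -0.26 ± 0.18 in RUNX1-ERt2 against ERt2 (-0.66 to 0.14). The other tested probes, A_52_P135421 and A_55_P2034903, differed by 0.06 ± 0.13 and -0.14 ± 0.14 in ko against wt and by 0.17 ± 0.18 and 0.12 ± 0.19 in RUNX1-ERt2 against ERt2, none past the test. A_52_P135421 was lower by 0.44 log2 in ERt2 than in ko GMP (difference -0.44 ± 0.16, limma adjusted p = 0.039), whereas A_55_P1969251 differed by -0.02 ± 0.15 there. Socs7, whose product binds insulin receptor substrates, was measured by A_55_P2034893 (chr11:97259763-97259822, plus strand, mm9), with 1.83 and 1.52 with RUNX1-ERt2, 1.45 and 1.87 with ERt2, 1.18 to 1.47 in ko and 1.09 to 1.86 in wt GMP. Its differences were -0.22 ± 0.17 in ko against wt (95% interval -0.61 to 0.18) and 0.01 ± 0.25 in RUNX1-ERt2 against ERt2 (-0.54 to 0.57). For these 4 genes the 95% intervals of the ko against wt difference reach from -0.61 to 0.4.

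The comparison of ko with wt GMP asks what follows the loss of Runx1 in native progenitors. In it 4 of the 8 genes (Cish, Socs1, Socs2 and Socs3) were higher in ko and 0 were lower by limma with Benjamini-Hochberg adjustment over all genes at 0.05, and the same 4 had an unadjusted p under 0.05. Over all genes tested 11.5% were higher and 13.8% lower. The median difference was 0.43 log2 over the 8 genes and -0.05 over all genes. Cish, Socs2 and Socs3 had every ko array above every wt array, which held for 10% of all genes.

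The comparison of RUNX1-ERt2 with ERt2 asks what follows when RUNX1 activity is restored by tamoxifen in Runx1-deleted, transplanted progenitors. Cish was higher and Socs1 lower with RUNX1-ERt2, and the other 6 genes did not pass the test. Over all genes tested 10.3% were higher and 8.85% lower, and the median difference was -0.02 over the 8 genes and 0 over all genes. Both RUNX1-ERt2 arrays were above both ERt2 arrays for Cish, Socs2 and Socs3, which held for 29.1% of all genes. They were below both ERt2 arrays for Socs1 and Socs6, which held for 29.8% of all genes. With 2 arrays a group, each group on a slide of its own, slide and group cannot be told apart here.

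**Figure D3:**
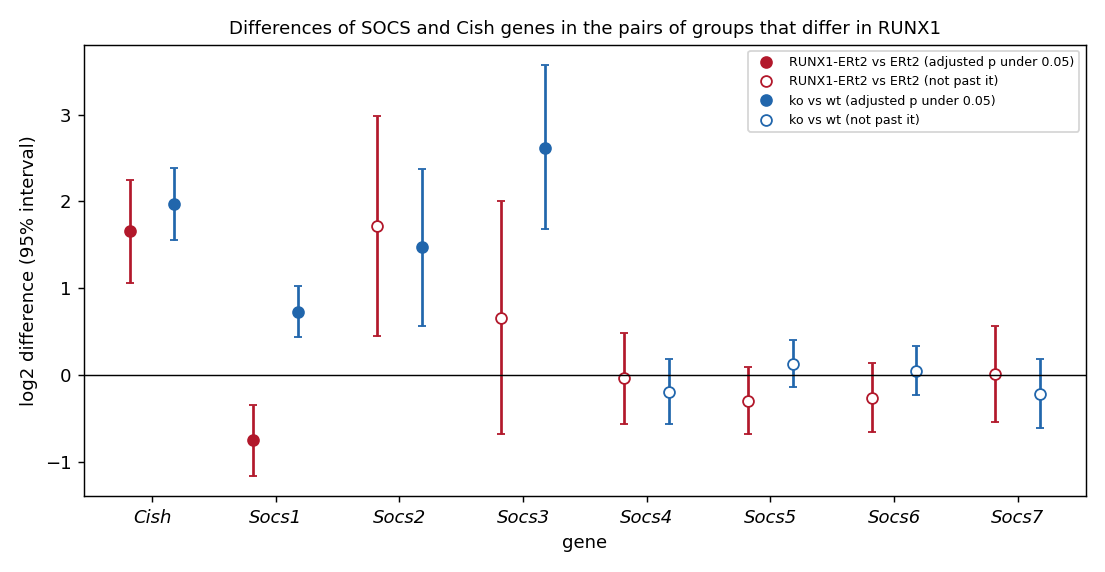
Log2 difference of each gene with its 95% interval, for RUNX1-ERt2 against ERt2 (red, left of each pair) and ko against wt (blue, right), where filled points passed an adjusted p of 0.05 and open points did not. Cish lies above 0 in both comparisons (1.66 and 1.97), Socs1 lies on opposite sides of 0 (-0.75 and 0.73), and Socs4 to Socs7 have intervals that include 0.

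The ERt2 and ko groups both came from floxed Runx1 alleles with vav-Cre, but they differ in 5-fluorouracil, viral infection, transplantation, tamoxifen and slide, which cannot be told apart. Cish was lower in ERt2 than in ko GMP by 2.67 log2 (difference -2.67 ± 0.23, 6.39-fold, limma adjusted p = 1.57e-05), the largest difference of the family in any comparison of 2 groups. Socs3 was lower (-2.07 ± 0.51, limma adjusted p = 0.00744), as was Socs2 (-1.55 ± 0.49, 0.0225), and Socs4 was higher (0.7 ± 0.2, 0.015). This made 1 gene higher and 3 lower of 8, where 30.1% of all genes were higher and 26.7% lower. The arrays of the 2 groups did not overlap for these 4 genes, and all ERt2 arrays lay above all ko arrays for 33.9% of all genes and below them for 29.1%. The Socs3 and Socs4 calls were lost without ERt2 replicate 2 (adjusted p = 0.064 and 0.11). The Socs2 call was lost with the replicate block (0.0511), in a fit of these 6 arrays alone (0.0565), without ko replicate 2 or ko replicate 3 (0.053 and 0.0506), without ERt2 replicate 1, where the difference was -0.82 (0.235), and with normexp, where it was -0.44 (0.541). The other Socs2 probes gave -0.97 ± 0.41 and -0.96 ± 0.44 and did not pass the test (adjusted p = 0.0694 and 0.0877).

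RUNX1-ERt2 and wt GMP both carried RUNX1 but differ in the same treatments and in slide. Cish (0.95 ± 0.23, limma adjusted p = 0.00819) and Socs2 (1.63 ± 0.49, 0.0224) were higher in RUNX1-ERt2 than in wt GMP, and Socs5 was lower (-0.43 ± 0.15, 0.0382), so that 2 genes were higher and 1 lower of 8, where 21.9% of all genes were higher and 24.2% lower. Arrays of the 2 groups did not overlap for Cish, Socs2, Socs4 and Socs5, and all RUNX1-ERt2 arrays lay above all wt arrays for 27.3% of all genes and below them for 28.7%. Socs3 differed by 1.21 ± 0.51 and Socs4 by 0.47 ± 0.2, neither past the test (limma adjusted p = 0.0824 and 0.0831). Without RUNX1-ERt2 replicate 1, 0 of the 8 genes passed the limma test and 1 had an unadjusted p under 0.05. With the replicate block only Cish passed, with an adjusted p of 0.0519 for Socs2 and 0.0594 for Socs5. With normexp the Socs2 difference was 0.47 (0.53). The Socs5 call was lost in 13 of the other settings (adjusted p 0.0513 to 0.29) and kept in 10. The other Socs2 probes were 2.29 ± 0.41 and 1.94 ± 0.44 higher in RUNX1-ERt2 GMP (limma adjusted p = 0.00183 and 0.00605).

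The group without RUNX1 was set against the group with it in the transplanted and the native setting, as the difference ERt2 minus RUNX1-ERt2 minus the difference ko minus wt. RUNX1 was returned as a fusion in the first setting and deleted in the second. Cish (-3.63 ± 0.32 log2, limma adjusted p = 0.000156), Socs3 (-3.28 ± 0.73, 0.0143) and Socs2 (-3.19 ± 0.69, 0.0132) differed between the settings, where 9.48% of all genes had a negative and 8.73% a positive difference past the test. For all 3 genes the sign turned as well: the group without RUNX1 had the lower mean in the transplanted setting and the higher one in the native setting, although for Socs2 and Socs3 the transplanted part alone did not pass the test. Socs1 gave 0.02 ± 0.22 (95% interval -0.48 to 0.52, adjusted p = 0.963), and Socs4 to Socs7 gave 0.17 to 0.23, none past the test. Without RUNX1-ERt2 replicate 1 the adjusted p was 0.0502 for Socs2 and 0.0531 for Socs3, and without ERt2 replicate 2 it was 0.0669 for Socs3. With normexp the Socs2 value was -0.91 (adjusted p = 0.551). The other Socs2 probes gave -3.26 ± 0.58 and -2.9 ± 0.62 (limma adjusted p = 0.00546 and 0.0127).

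The rest of the pathway was described by lists of its parts, each set beside the shares of all genes given above. Of the 11 JAK kinases and STAT factors, which carry the signal that SOCS proteins interrupt, 6 were higher and 0 lower in ko than in wt GMP, with a median of 0.42. Jak3, the kinase of the common gamma chain receptors, was 1.53 ± 0.17 higher (limma adjusted p = 0.000479). Stat3, the factor of the G-CSF and IL-6 receptors, was 0.67 ± 0.12 higher (0.00471), and Stat5b, a factor of the IL-3 and GM-CSF receptors, 0.62 ± 0.09 higher (0.0015). With RUNX1-ERt2 against ERt2, Jak3 was lower (-0.97 ± 0.24, limma adjusted p = 0.0222) and Jak1 higher (0.61 ± 0.16, 0.0284), with a median of -0.18 over the list.

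Of 33 receptors that signal through JAK and STAT, 30 were tested. In ko against wt GMP 6 were higher and 2 lower, with a median of -0.02. Csf2rb2, an IL-3 receptor subunit of the mouse, was 1.57 ± 0.15 higher (limma adjusted p = 0.000209). Il10ra, an IL-10 receptor chain, was lower by 0.94 (difference -0.94 ± 0.24, 0.0192). With RUNX1-ERt2 against ERt2, 0 were higher and 14 lower, with a median of -0.67, beside 8.85% of all genes lower. Il21r (-2.88 ± 0.25, limma adjusted p = 8.33e-05), the interferon gamma receptor chain Ifngr2 (-2.15 ± 0.25, 0.000468) and the shared IL-6 family chain Il6st (-1.8 ± 0.34, 0.00587) had the largest such differences. The other 3 receptors had no probe above background in any whole group.

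Among 18 other inhibitors of cytokine signalling, 7 were higher and 1 lower in ko than in wt GMP (median 0.26), and in RUNX1-ERt2 against ERt2 GMP 2 were higher and 6 lower (median -0.24). Dok2, an adaptor that dampens receptor signalling, was 1.76 ± 0.24 higher in ko (limma adjusted p = 0.00126) and lower by 1.83 with RUNX1-ERt2 (difference -1.83 ± 0.34, 0.00561). Usp18, an inhibitor of the interferon alpha receptor, was higher in both comparisons, by 1.36 ± 0.21 in ko (0.00241) and by 1.53 ± 0.3 with RUNX1-ERt2 (0.00736). Sh2b2, a JAK-binding adaptor, was lower in ko (-1.22 ± 0.28, 0.0135), and Dok3, a relative of Dok2, was lower with RUNX1-ERt2 (-1.52 ± 0.24, 0.00248).

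Of the 9 elongin and cullin partners of the SOCS box, 1 was higher and 3 lower in ko than in wt GMP (median -0.24). Ube2f, which loads NEDD8 onto cullin 5, was lower in ko (-0.48 ± 0.09, limma adjusted p = 0.00509) and higher with RUNX1-ERt2 (0.41 ± 0.13, 0.0478), Arih2, which works with cullin 5 ligases, was higher in ko (0.46 ± 0.11, 0.0178), and Eloc, elongin C, was lower in ko (-0.43 ± 0.13, 0.0345). Of 27 other proteins with a SOCS box, 20 were tested, of which 4 were higher and 2 lower in ko (median -0.01) and 2 higher and 0 lower with RUNX1-ERt2 (median 0.15). Spsb4 was lower in ko (-3.75 ± 0.29, limma adjusted p = 6.66e-05), as was Asb16 (-1.59 ± 0.23, 0.00182), and Asb1 was higher (0.55 ± 0.13, 0.014). Asb17 was at least 10.6-fold higher with RUNX1-ERt2 than with ERt2 (limma adjusted p = 0.00799), a lower bound because it was not well above background on either ERt2 array, where the higher of its signal and the lowest signal well above background was used. Its mean levels were -1.78 with RUNX1-ERt2 and -6.05 with ERt2. Asb4 passed the test as well (0.0435), but it too was not well above background on the ERt2 arrays and no fold is given.

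Genes listed as STAT targets, whether induced or repressed by STATs, were read next. Of 7 STAT5 target genes tested, members of the SOCS family aside, 4 were higher and 1 lower in ko than in wt GMP (median 1.28), and 0 passed the limma test with RUNX1-ERt2 against ERt2 (median 0.23). Osm, encoding oncostatin M (1.51 ± 0.4, limma adjusted p = 0.0241), and the survival kinases Pim1 (1.38 ± 0.3, 0.0106) and Pim2 (1.37 ± 0.14, 0.000331) were higher in ko. Of 8 STAT3 target genes tested, 2 were higher and 0 lower in ko (median 0.29), namely Bcl3 (1.7 ± 0.17, 0.000285), an NF-kB cofactor, and Pim1, which is on both lists. With RUNX1-ERt2, 0 were higher and 2 lower (median -0.25), namely the granulocytic transcription factors Cebpb (-1.05 ± 0.24, 0.0155) and Cebpd (-1.05 ± 0.31, 0.0427). Of 20 interferon target genes, 14 were higher and 1 lower in ko (median 0.95), among them the antiviral genes Oas2 (2.66 ± 0.24, 0.000142), Ifit1 (2.09 ± 0.19, 0.000153) and Rsad2 (1.96 ± 0.16, 8.03e-05). With RUNX1-ERt2, 1 was higher (Usp18) and 5 lower (median -0.44), among them Oas2 (-2.34 ± 0.33, 0.00141) and Ifit3, which was not well above background with RUNX1-ERt2 and was at least 1.83-fold lower there (mean levels -5.8 with RUNX1-ERt2 and -4.57 with ERt2, 0.0379).

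**Figure D4:**
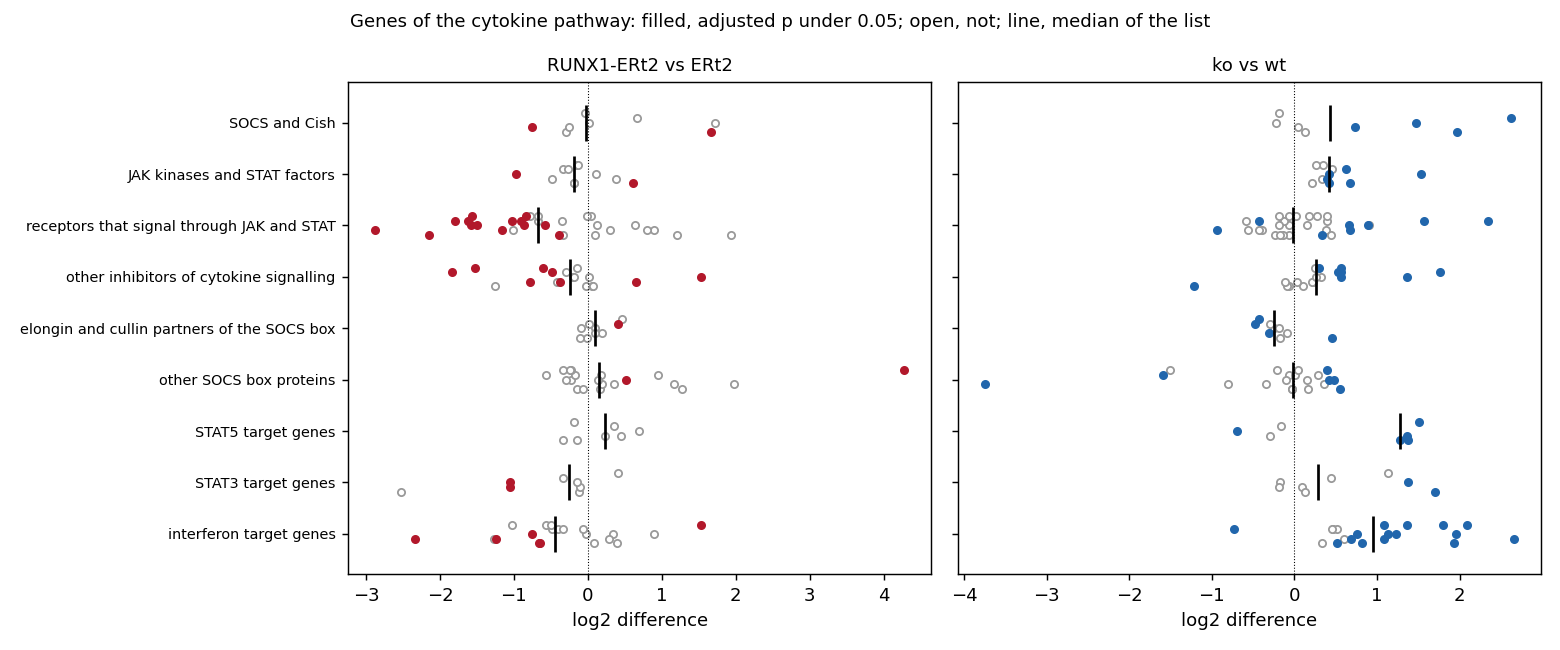
Log2 difference of each tested gene of the SOCS family and of 8 lists of pathway genes (rows), for RUNX1-ERt2 against ERt2 (left) and ko against wt (right), with filled points for genes past an adjusted p of 0.05, open points for the others and a black line at the median of the list. The medians in ko against wt are 0.43 for the SOCS family, 0.95 for interferon targets and 1.28 for STAT5 targets, and in RUNX1-ERt2 against ERt2 the receptors have a median of -0.67 with 14 filled points below 0.

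The genes whose pattern over the 12 arrays was most like that of a SOCS gene were found among 14262 named genes by the root mean square difference in log2 level after each gene was centred on its own mean. For Cish (SD over arrays 1.04) they were Arhgap6 at 0.4, Arhgef12 at 0.46 and Prkcq at 0.48. For Socs1 (SD 0.51) they were Hoxb4 at 0.18, Trim30d at 0.21 and Slfn8 at 0.21. For Socs2 (SD 0.92) they were Oasl1 at 0.46, Usp18 at 0.53 and Isg15 at 0.55. For Socs3 (SD 1.22) they were Osm at 0.59, Grhl1 at 0.6 and Hspa12b at 0.63.

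Markers of other cell types moved with the groups. The summed linear level of 8 megakaryocyte and platelet markers was 14.8 to 41.9 on RUNX1-ERt2 arrays, 12.1 to 29.7 on ERt2, 45.2 to 64.5 on ko and 9.54 to 15.9 on wt arrays, and 5 of the 8 were higher and 0 lower in ko than in wt GMP. Stem cell markers (6 of 8 tested, Mecom and Fgd5 not above background in any whole group) summed to 8.77 to 9.6, 8.28 to 14.2, 24.1 to 31.2 and 10 to 13.9 in the same order, with 3 higher and 1 lower in ko. These sums were thus the highest on the ko arrays. The 10 GMP markers summed to 490 to 682 with RUNX1-ERt2, 936 to 1070 with ERt2, 434 to 564 in ko and 635 to 890 in wt GMP. Of these markers 1 was higher and 5 lower in ko than in wt GMP, and in RUNX1-ERt2 against ERt2 GMP the counts were 0 and 4, the lower ones being Elane, Ctsg, Fcgr3 and Kit.

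In the transplanted pair, 8 late neutrophil markers summed to 46.4 to 51.3 with RUNX1-ERt2 and 281 to 386 with ERt2, against 10 to 125 in ko and 22.7 to 128 in wt GMP. Between RUNX1-ERt2 and ERt2, 0 of these 8 passed the limma test in either direction and 2 had an unadjusted p under 0.05. The 7 monocyte and macrophage markers tested summed to 6.34 to 11.6 with RUNX1-ERt2 and 78.8 to 96.8 with ERt2, against 13.9 to 43.7 in ko and 22.9 to 42.5 in wt GMP, and 4 of the 7 were lower with RUNX1-ERt2 than with ERt2. The ERt2 arrays had the highest sums for these mature myeloid markers. Their sums were also the highest for the GMP, T and NK cell, and basophil and mast cell markers. A summed linear level is weighted to its brightest genes, and counts of genes differed from it. In ERt2 against wt GMP, 1 of 7 T and NK cell markers was higher and 2 lower (median -0.89). Of 8 basophil and mast cell markers 3 were higher and 4 lower (median -0.64), and of 10 GMP markers 3 and 1 (0.57). Of all genes 28.4% were higher and 27.8% lower there. The 7 erythroid markers tested summed to at least 91.7 with RUNX1-ERt2 and at least 77.1 with ERt2, against at most 56.9 in ko and at most 35.5 in wt GMP. The B lineage markers tested summed to 14 to 28.8 with RUNX1-ERt2 and 8.71 to 9.72 with ERt2, against 4.26 to 5.89 in ko and 5.08 to 5.77 in wt GMP. By counts in ERt2 against wt GMP, 2 of the 7 erythroid markers were higher and 0 lower (median -0.47). Of the 6 B lineage markers 1 was higher and 3 lower (median -1.49). The pre-B cell receptor gene Vpreb1 was 5.86 ± 0.45 higher with RUNX1-ERt2 than with ERt2 (limma adjusted p = 3.86e-05), and its partner Igll1, not well above background on either ERt2 array, at least 24.5-fold higher (mean levels -0.57 with RUNX1-ERt2 and -5.82 with ERt2, 0.0033). Cd79b, of the same list, was lower with RUNX1-ERt2 (-0.75 ± 0.17, limma adjusted p = 0.0139), and the median of the list was 0.52. The T and NK cell markers summed to 15.6 to 16.7 with RUNX1-ERt2 and 37 to 49.7 with ERt2, against 9.75 to 14.6 in ko and 21.8 to 35.8 in wt GMP, and the basophil and mast cell markers to 51.4 to 68.8 and 96.6 to 104, against 53.5 to 86 and 39.2 to 45.6. The dendritic cell markers summed to 77.9 to 79 with RUNX1-ERt2 and 72.1 to 72.5 with ERt2, against 63.5 to 93.2 in ko and 79.3 to 110 in wt GMP. Among them Itgax was 4.4 ± 0.43 higher with RUNX1-ERt2 than with ERt2 (limma adjusted p = 0.000159). Flt3 (-1.12 ± 0.28, 0.0223) and Batf3 (-2.14 ± 0.55, 0.0253) were lower, and the median of the list was -0.83. The stroma and endothelium markers summed to 2.15 to 2.21 with RUNX1-ERt2 and 1.91 to 1.98 with ERt2, against 3.75 to 6.43 in ko and 4.99 to 8.44 in wt GMP. In RUNX1-ERt2 against ERt2 GMP, the counts higher and lower were 2 and 1 of 6 for B lineage, 1 and 1 of 7 for T and NK cell, 2 and 2 of 8 for basophil and mast cell, 1 and 2 of 8 for dendritic cell, 0 and 0 of 5 for stroma and endothelium (1 with an unadjusted p under 0.05), 0 and 2 of 8 for megakaryocyte and platelet, 1 and 0 of 7 for erythroid and 1 and 0 of 6 for stem cell markers by limma. In ko against wt GMP, the counts higher and lower were 1 and 0 of 8 for late neutrophil, 0 and 3 of 7 for monocyte, 2 and 1 of 7 for erythroid, 2 and 4 of 8 for basophil and mast cell, 0 and 5 of 8 for dendritic cell, 0 and 1 of 6 for B lineage, 0 and 2 of 7 for T and NK cell, and 1 and 1 of 5 for stroma and endothelium markers. Pax5, Ebf1, Cd8a, Col1a1, Col3a1 and Cdh5, markers of lymphoid and stromal cells, were not above background in any whole group. The part of these cell types in the SOCS and Cish differences was not tested.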

How the data were processed

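RNA of 12 GMP samples was labelled with Cy3 (Low Input Quick Amp) and hybridised to Agilent arrays, per the labels' protocols. The deposited intensity values are processed signals, background-subtracted and detrended by Agilent Feature Extraction 10.7.3.1 per the file headers (9.1 in the processing notes of the submitters). An alternative, the authors' series matrix, holds a ratio of the processed signal to the array median, with column medians of 0.91 to 0.94, and each of its 8 wt and ko columns held the values of a different replicate than its label says (1 and 3 exchanged, 2 and 4 exchanged). Groups came from the sample labels. Slide 1 held replicates 1 and 2 of wt and ko, and slide 2, for which the file headers name a different protocol, replicates 3 and 4. ERt2 and RUNX1-ERt2 each had a slide of their own.

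Spots marked as outliers by the scanner software were left out, spots of a probe averaged, and log2 intensity taken minus the 75th percentile of the array. Of 39429 probes, 27234 were named through an accession, 3576 through a symbol and 565 through a synonym in a RefSeq table, and 8054 kept the name in the file. A probe was tested where some group had it well above background on all its arrays, and the probe with the highest mean stood for a gene. Differences were tested with limma 3.58.1 (lmFit, eBayes) under R 4.3.3. A single model held 4 group means and, for wt and ko arrays, the slide (7 residual and 2.11 prior degrees of freedom); p-values were adjusted by Benjamini-Hochberg over all genes of a comparison. The script was tested on simulated data. Array number limits the precision.

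The members and lists were chosen with earlier results of these data known. ERt2 against wt and RUNX1-ERt2 against ko were added after the values were seen, to test neighbours in the order of levels. Named were all members, of each list up to 3 genes with the largest difference past the threshold, and the 3 nearest genes of each member past it. A gene chosen by this rule is not reported here, and the counts include it. For pairing, deviations from the group means of same-numbered wt and ko samples correlated at 0.37, 0.35, 0.17 and 0.67 over genes, so the numbers were taken to pair them in the replicate block. The main fit did not use these pairs. These numbers also follow the slides, and within slides the correlations were -0.02, -0.02, 0.43 and 0.43. No samples were so alike as to be duplicates (SD of log2 differences at least 0.332). Other settings were normexp, quantile and median scaling, the series matrix, the dim-probe filter, the slide term, the replicate block, the arrays fitted, the mean of probes, array weights and each array left out.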

Additional observations from a re-analysis of the deposited data

Results flagged for a closer look

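Socs2 in wt replicate 3 had a log2 level of -5.64, while the other 3 wt arrays lay at -4.71 to -4.7. This array stood apart from its group by the gap to its neighbour relative to the range of the group (Dixon's criterion at 95%), which chance meets in about 1 of 20 groups. Without it the ko against wt difference of Socs2 was 1.21 log2 (limma adjusted p = 0.0693).

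For Cish, Socs2 and Socs3 the difference between the group without and the group with RUNX1 was not the same in the transplanted and the native setting. The transplanted difference alone did not pass the limma test for Socs2 (adjusted p = 0.0638) or Socs3 (0.507). The difference ERt2 minus RUNX1-ERt2 less the difference ko minus wt was -3.63 log2 for Cish, -3.19 for Socs2 and -3.28 for Socs3 by the interaction term of the limma fit. 5-fluorouracil, viral infection, transplantation, tamoxifen and slide differ between the settings and cannot be told apart. The settings also differ in how RUNX1 was changed, by deletion of the gene in the native one and by a returned fusion in the transplanted one.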

How the results depend on the processing

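Over 26 other settings, 931 values of the 8 genes were computed again, of which 874 kept their side of the threshold, 52 lost and 5 gained a call, and 0 reversed a call. A value past the threshold in neither the main nor the other setting was counted as kept even where its sign changed. Cish was higher with RUNX1-ERt2 than with ERt2 in all 24 settings run for it, and in ko than in wt GMP in all but slide 2 alone (2.18 log2, limma adjusted p = 0.0559). The number of the 8 genes past the limma test in ko against wt was 4, but 2 with normexp, 2 on slide 1 alone and 0 on slide 2 alone, where 4 had an unadjusted p under 0.05 and 2.1% of all genes passed. In RUNX1-ERt2 against ERt2 it was 2, but 1 with normexp and 1 with no slide term. In RUNX1-ERt2 against wt it was 3, but 1 with normexp and 1 with the replicate block. With each array left out in turn (an arm left with 1 array is assumed to vary like the other groups), it was 3 to 4 in ko against wt, 1 to 2 in RUNX1-ERt2 against ERt2, 2 to 4 in ERt2 against ko, 0 to 4 in RUNX1-ERt2 against wt (0 without RUNX1-ERt2 replicate 1, with 1 unadjusted) and 1 to 3 in the difference between settings, where it was 3. The replicate block left 3 genes past the test in ko against wt, 2 in RUNX1-ERt2 against ERt2, 3 in ERt2 against ko and 3 in the difference between settings, and it changed no call other than those of Socs2 and Socs5 given above. Crossing the pairs of the transplanted arrays, an alternative chosen after seeing the data because same-numbered arrays correlated at -0.19, left 2. Socs2 was left out where all 12 arrays had to be above background. Array median scaling moved the median of all genes in ERt2 against ko to 0.25 (0.06 with the percentile) and in RUNX1-ERt2 against wt to 0.14 (0), where Socs4 gained a call (0.6, adjusted p = 0.0322) and Socs5 lost its call (-0.3, 0.0902), as they did with the series matrix (0.58, 0.0395, and -0.32, 0.069). The causes of these changes were not tested. Dim signal limits Socs2, and 2 arrays a group limit the transplanted comparisons.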
